A study of Mus musculus with 6 samples.

Results

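Wnt proteins are secreted lipid-modified ligands that bind Frizzled receptors together with the co-receptors LRP5 or LRP6. In the canonical branch this binding halts a destruction complex built on the scaffolds AXIN and APC and the kinase GSK3, so that β-catenin is no longer degraded, enters the nucleus and drives target genes with TCF and LEF factors. Secreted antagonists of the SFRP and DKK families hold the pathway back from outside the cell. In the heart the pathway is known for its roles in development, and in the adult for its reactivation after injury, in several cell types.

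The genes described here are the Wnt pathway core of the table, chosen by symbol: every row named as a Wnt ligand, Frizzled receptor, SFRP or DKK antagonist, plus Lrp5, Lrp6, Ctnnb1, Axin1, Axin2, Apc, Gsk3b, Tcf7l1, Tcf7l2 and Lef1. There were 38 such genes among 27482, namely 15 ligands, 8 Frizzled receptors, 5 antagonists, 2 co-receptors, 4 members of the destruction complex, β-catenin (Ctnnb1) and 3 nuclear factors. The symbols Wnt2, Wnt3a, Wnt7a, Wnt16, Fzd9, Fzd10, Dkk1, Sfrp2 and Sfrp5 had no row. Their levels are therefore unknown here, and the family sums and shares below leave them out. Of the 38, 14 reached a mean of 1 CPM (read counts scaled to a common library size, with TMM normalization between libraries), and these 14 exceeded 1 CPM in all 6 libraries.

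RNA was sequenced from 6 libraries labelled as mouse heart, 3 from animals made to overexpress FNDC4 by viral delivery (AAV9-hFNDC4) and 3 from animals that received the control virus (AAV9-CTRL). FNDC4 belongs to the fibronectin type III domain proteins and can be shed from the cell, and AAV9 is an adeno-associated virus used to reach the heart. All mice, male per the series title, underwent ischemia/reperfusion (I/R), a temporary stop of coronary blood flow followed by its return, and hearts were taken 24 h later. Not given in the sources used here are the strain, the age, the promoter of the vector and whether each library came from 1 animal, so the p-values measure no more than the library-to-library spread, possibly a technical one. The comparison asked how FNDC4 overexpression altered the transcriptome of the injured heart.

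Total counts lay between 32975817 and 36074046 per library. Fndc4 itself was not analysed here, and the group labels were taken as given. Against marker lists for the tissue label, 2 of 10 cardiomyocyte markers reached 1 CPM, namely Tnnt2 at a mean of 44.9 CPM and Ttn at 4.26 CPM, while Nkx2-5 and Pln had no counts and Myh6, the main cardiac myosin, averaged 0.277 CPM. The cardiomyocyte list summed to 43.0 to 44.5 CPM in the AAV9-hFNDC4 libraries and 56.4 to 58.3 CPM in the control libraries. Most of each sum was Tnnt2, which was called lower (log2 fold change -0.44), while Ttn (0.24) and Myl2 (0.28) were not called. Ryr2 was called lower (-3.75), at 0.0267, 0.0277 and 0.0543 against 0.607, 0.382 and 0.598 CPM. It entered the test through the control libraries, where it was high. Of 9 fibroblast markers 5 reached 1 CPM. The list summed to 2622 to 3181 CPM in the AAV9-hFNDC4 libraries against 1793 to 2237 CPM in the control libraries. Col1a2 (0.44), Col3a1 (0.91) and Pdgfra (1.21) were called higher, Col1a1 (0.34) was not called and Mfap5 was called lower (-0.48). Dcn, Lum, Tcf21 and Postn averaged at most 0.122 CPM. Of 6 mural markers 2 reached 1 CPM, with sums of 531 to 595 against 297 to 359 CPM. These were Pdgfrb (1.05) and Cspg4 (0.72), both called higher. Notch3 was called lower (-2.56), at 0.0534, 0.111 and 0.407 against 1.16, 1.31 and 0.957 CPM. Besides the cardiomyocyte list, the leukocyte and epicardial lists had lower sums in the AAV9-hFNDC4 libraries. The leukocyte list had 2 of 10 markers at 1 CPM and sums of 18.5 to 21.1 against 36.9 to 44.4 CPM, although the defining marker Ptprc averaged 0.0912 CPM. The largest part of each sum was Cd68, called lower (-1.25), at 10.9, 13.3 and 10.9 against 28.5, 30.5 and 24.7 CPM. Lyz2, the other marker at 1 CPM, was not called (-0.11). Below a mean of 1 CPM, Itgam (-8.88) and Cd79a (-3.19) were also called lower, and Csf1r (-0.82) was not called. Itgam had no counts in any AAV9-hFNDC4 library and averaged 0.843 CPM over all libraries. The remaining 5 markers of this list did not enter the test. The epicardial list had 2 of 6 at 1 CPM and sums of 57.6 to 62.1 against 83.7 to 99.0 CPM, with Msln called lower (-0.70) and Tbx18 not called (0.105). Endothelial (2 of 8 at 1 CPM) and epithelial (0 of 5) lists summed to at most 5.59 and 2.14 CPM in any library. The part of these markers in the differences below was not tested, and in bulk RNA fewer cells of a type and less RNA per cell cannot be told apart. Since cardiomyocyte, endothelial and leukocyte genes that define those cells were near 0, the levels go against the label of whole heart, and no value is assigned to heart muscle.

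Promoter sequences are shown for 3 members on which the results turn. Fzd4 is the receptor with the greatest rise, Axin2 is the classical target gene of the canonical branch and had 1 read, and Wnt5b is a measured ligand with a TCF/LEF letter match at one of its starts. Each is the stretch from 250 to 51 bases before a RefSeq transcription start (GRCm38.p6), 200 bases long, read 5′ to 3′ on the gene's strand, with no base in an annotated exon. Capitals mark a match to CTTTGAT or CTTTGAA on either strand.
Fzd4, chr7:89404116-89404315, plus strand: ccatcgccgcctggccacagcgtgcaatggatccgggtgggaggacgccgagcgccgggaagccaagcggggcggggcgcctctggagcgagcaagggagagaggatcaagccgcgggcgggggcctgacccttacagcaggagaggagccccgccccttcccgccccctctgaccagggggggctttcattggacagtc
Axin2, chr11:108920099-108920298, plus strand: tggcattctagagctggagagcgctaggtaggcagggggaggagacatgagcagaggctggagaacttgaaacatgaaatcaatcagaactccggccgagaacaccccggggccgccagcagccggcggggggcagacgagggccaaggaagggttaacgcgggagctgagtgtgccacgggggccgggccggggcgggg
Wnt5b, chr6:119449437-119449636, minus strand: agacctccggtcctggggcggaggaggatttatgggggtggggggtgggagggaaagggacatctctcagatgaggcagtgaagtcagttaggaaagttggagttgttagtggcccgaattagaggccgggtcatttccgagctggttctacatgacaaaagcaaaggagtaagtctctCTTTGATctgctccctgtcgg

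The Fzd4 stretch has 71.5% G and C with 17 CpG pairs, the Axin2 stretch 66.0% with 14, and the Wnt5b stretch, which belongs to a start inside the gene, 54.0% with 6. RefSeq windows of 300 bases (250 before to 50 after a start) were available for 22 of the 38 members, 30 windows in all. A match to either motif was present in 2 of them, 1 of Wnt5b and 1 of Wnt11, or 6.7%, against 8.7% of all 32851 such windows. A match is a run of letters, not a measured binding site.

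Of the tested members, 2 of 2 co-receptors, 2 of 2 nuclear factors and 3 of 5 Frizzled receptors were higher in the AAV9-hFNDC4 libraries, and 1 Frizzled was lower. In the destruction complex 2 of 3 were higher, but Apc there and Fzd5 among the receptors lost their calls with a correction for transcript length. The 3 tested ligands, the 1 tested antagonist and β-catenin were not called. Log2 fold changes are AAV9-hFNDC4 minus AAV9-CTRL from edgeR's quasi-likelihood test, and a gene was called at a Benjamini-Hochberg adjusted p, taken over all 14663 genes tested, under 0.05. Of 17 members with enough counts to enter the test, 9 were higher, 1 was lower and 7 did not pass. This is 58.8% called, against 47.1% of all genes tested, with 52.9% higher against 22.1% and 5.88% lower against 25.0%. The median log2 fold change of the 17 was 0.50, against 0.01 over all genes tested. The groups did not overlap in 11 of the 17 (64.7%), against 56.6% of all genes tested (27.1% higher and 29.5% lower). A trend with transcript length ran through the whole table, the median log2 fold change being 0.46 in the longest 10% of genes and -0.51 in the shortest 10%. Of the 17 members 3 (Apc, Lrp6 and Gsk3b) lay in the longest 10%, and Fzd5 (6915 exon bases) and Fzd4 (6720) lay just under its limit of 6973. With a correction for this trend 7 members were higher and 1 lower, against 2936 higher and 3002 lower of 13558 genes tested. For called genes, values with a correction for transcript length are therefore given where it ended the call or moved the value by over 1.5 times.

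**Figure D1:**
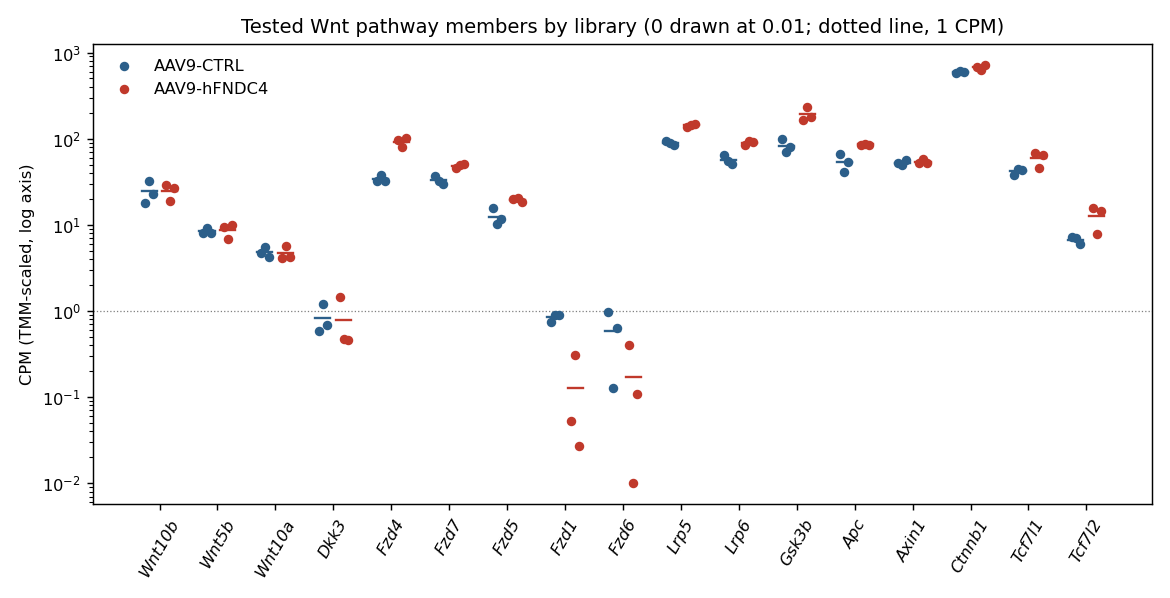
Level of each of the 17 tested genes in every library, as CPM on a log axis, with 1 point per library, short lines at group means and values of 0 drawn at 0.01. Fzd4, Lrp5 and Gsk3b lie higher in each AAV9-hFNDC4 library than in any AAV9-CTRL library, while Wnt10b, Wnt5b, Wnt10a and Axin1 overlap.

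Few of the listed ligands and secreted antagonists had enough counts to enter the test, and none passed it between the groups. Of 15 Wnt ligands, 3 reached 1 CPM: Wnt10b, Wnt5b and Wnt10a. The first and the last belong to the pair of WNT10 proteins known as activators of β-catenin signalling, and WNT5B is known chiefly for β-catenin-independent signalling. Wnt10b measured 28.8, 18.7 and 27.0 CPM in AAV9-hFNDC4 replicates 1 to 3 and 18.1, 32.4 and 23.1 CPM in AAV9-CTRL replicates 1 to 3. The groups overlapped, and the log2 fold change was 0.02 (SE 0.21).

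Wnt5b measured 9.37, 6.79 and 9.97 CPM in the AAV9-hFNDC4 libraries and 7.98, 9.12 and 8.05 CPM in the control libraries. Wnt10a measured 4.09, 5.65 and 4.26 CPM against 4.66, 5.48 and 4.28 CPM. Both overlapped between groups, with log2 fold changes of 0.06 (SE 0.19) and -0.04 (SE 0.22). By edgeR, 0 of the 3 ligands passed, 0 had an unadjusted p under 0.05, and DESeq2 and limma-voom also called 0. Without both libraries numbered 2, a setting added after the data had been seen, Wnt10b passed with a log2 fold change of 0.44.

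Per kilobase of exon, which allows levels of different genes to be compared, Wnt10b held 51.3% to 62.2% of the summed ligand level of a library, Wnt5b 22.4% to 29.0% and Wnt10a 12.0% to 21.6%. The summed ligand level was 12.6 ± 1.77 CPM per kb (SD, n = 3) in the AAV9-hFNDC4 libraries and 12.5 ± 2.57 CPM per kb in the control libraries, a difference smaller than the spread. The other 12 ligands did not enter the test. Of these, Wnt7b had 26 counts over the 6 libraries, Wnt4 20, Wnt2b 17 and Wnt6 16. Wnt8a had 9 counts, 8 of them in AAV9-hFNDC4 replicate 2, and Wnt5a, a noncanonical ligand known in fibroblasts, had 8, all in AAV9-CTRL replicate 1. Wnt9b had 5 counts, and Wnt3, Wnt8b, Wnt9a and Wnt11 had 1 each. Wnt1 had no count, which allows a level of up to 0.0143 CPM over the 6 libraries.

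The antagonists had few counts. Dkk3, a divergent DKK family member, measured 1.44, 0.471 and 0.462 CPM in the AAV9-hFNDC4 libraries and 0.579, 1.21 and 0.688 CPM in the control libraries. Its groups overlapped, at a log2 fold change of -0.05 (SE 0.56), and the 2 highest libraries were 1 of each group. Sfrp1 and Sfrp4, decoy receptors that bind Wnt proteins, had 5 counts each over the 6 libraries, Dkk4 had 2 and Dkk2 had 1.

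Fzd4, a Frizzled that binds both Wnt ligands and the unrelated ligand Norrin and is known for its role in blood vessel growth, rose most among the members. It measured 96.4, 79.5 and 102 CPM in AAV9-hFNDC4 replicates 1 to 3 and 32.3, 37.5 and 32.3 CPM in AAV9-CTRL replicates 1 to 3. Every AAV9-hFNDC4 library lay above every control library, and means were 92.6 ± 11.7 and 34.0 ± 3.06 CPM (SD, n = 3 libraries each). The log2 fold change was 1.44 (SE 0.13), a 2.72-fold rise (edgeR, Benjamini-Hochberg adjusted p = 1.5e-05). The gene lies on chromosome 7 from 89404355 to 89413134 (GRCm38, ENSMUSG00000049791.4), and the call held in 16 of 16 alternatives, with log2 fold changes from 1.17 to 1.62.

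Fzd7, a broadly acting Frizzled of the canonical and polarity branches, measured 45.7, 48.9 and 50.8 CPM against 37.0, 31.9 and 29.4 CPM. The groups did not overlap, and the log2 fold change was 0.56 (SE 0.12, edgeR, adjusted p = 0.0025). Fzd5, a Frizzled able to signal through β-catenin, measured 19.8, 20.7 and 18.2 CPM against 15.7, 10.2 and 11.6 CPM. It was higher in 3 of 3 libraries than any control library, with a log2 fold change of 0.65 (SE 0.17). With the length correction the value for Fzd5 was 0.37 and the call ended, and 17.8% of its exon bases are shared with a gene model on the other strand, whose reads could not be told apart without knowing the strand setting of the counting.

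Fzd1 was the only member called lower, at a level under 1 CPM. It had 2, 11 and 1 counts in AAV9-hFNDC4 replicates 1 to 3 and 26, 28 and 30 counts in AAV9-CTRL replicates 1 to 3, which is 0.0534, 0.305 and 0.0272 CPM against 0.752, 0.892 and 0.898 CPM. The log2 fold change was -2.70 (SE 0.71, edgeR, adjusted p = 0.00884), and without AAV9-hFNDC4 replicate 2, the highest library of its group, it was -4.27. Of the 4 libraries with more than 10 counts 3 were controls, so Fzd1 entered the test mainly because it was high there. Fzd6, known mainly for its role outside the canonical branch, measured 0.401, 0 and 0.109 CPM against 0.984, 0.127 and 0.628 CPM. Its groups overlapped and it did not pass, with a log2 fold change of -1.75 (SE 0.94), but it passed at -3.32 without AAV9-hFNDC4 replicate 1. Fzd2, Fzd3 and Fzd8 had 2, 1 and 1 counts over the 6 libraries.

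Within the Frizzled family the makeup differed between the groups. Per kilobase of exon, Fzd4 made up 46.0% to 52.4% of the summed Frizzled level in the AAV9-hFNDC4 libraries and 30.7% to 38.9% in the control libraries. Fzd7 held 36.8% to 42.0% against 48.7% to 52.2%, so that Fzd4 ranked first in one group and Fzd7 in the other in every library. The ratio of Fzd4 to Fzd7 per kilobase, which does not depend on the scaling between libraries, was 1.42, 1.10 and 1.35 against 0.587, 0.794 and 0.739. Fzd5 held 9.08% to 11.7% against 10.2% to 14.5%, with overlapping groups. The summed Frizzled level was 27.4 ± 1.67 against 14.4 ± 1.16 CPM per kb (SD, n = 3), a difference larger than the spread within either group. These shares and sums are descriptions of genes already tested singly and carry no test of their own. Neither they nor the ratio are corrected for the trend with transcript length. With that correction the log2 fold changes were 1.17 for Fzd4 and 0.47 for Fzd7, both still called.

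**Figure D2:**
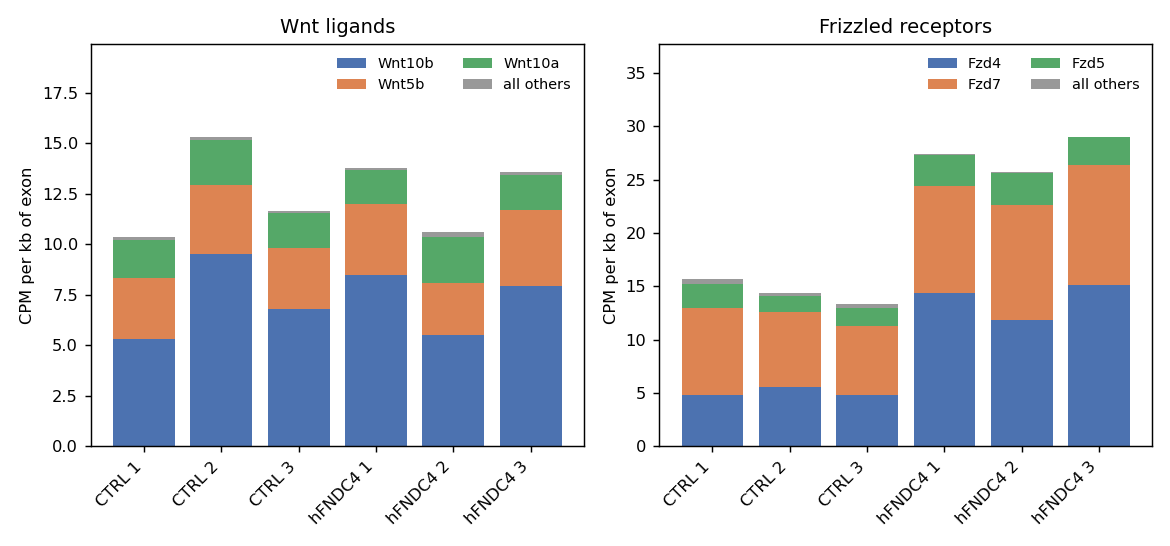
Summed level of the 15 listed Wnt ligands (left) and the 8 listed Frizzled receptors (right) in each library. Levels are CPM per kilobase of exon stacked by gene, with control libraries first. The ligand sums of the groups overlap, whereas the Frizzled sums of the AAV9-hFNDC4 libraries (25.7 to 29.0) all exceed those of the control libraries (13.3 to 15.6), with Fzd4 as the greatest part.

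Both co-receptors were higher in the AAV9-hFNDC4 libraries. LRP5 and LRP6 are single-pass receptors whose phosphorylated tails bind AXIN. Lrp5 measured 135, 146 and 149 CPM against 94.5, 89.5 and 84.8 CPM. Lrp6 measured 84.6, 93.0 and 90.9 CPM against 65.4, 55.1 and 51.3 CPM. Neither overlapped between groups, and the log2 fold changes were 0.68 (SE 0.10, edgeR, adjusted p = 0.000267) and 0.64 (SE 0.12, adjusted p = 0.000936). With the length correction the value for Lrp6 was 0.24 and still passed, and with that correction and the replicate block together it was no longer called. Per kilobase, Lrp5 exceeded Lrp6 by 2.50 ± 0.0562 times in the AAV9-hFNDC4 libraries and 2.45 ± 0.175 times in the control libraries (SD, n = 3), with overlapping groups, so the balance of the pair differed by less than its spread.

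Members of the destruction complex did not move as a block. Gsk3b, the kinase that marks β-catenin for degradation, measured 164, 232 and 178 CPM in the AAV9-hFNDC4 libraries and 98.7, 69.7 and 80.5 CPM in the control libraries. The groups were far apart, with means of 191 ± 35.9 and 83.0 ± 14.6 CPM (SD, n = 3), and the log2 fold change was 1.20 (SE 0.16, edgeR, adjusted p = 0.000129). The call held in 16 of 16 alternatives, at 0.84 with the length correction. Apc, the large scaffold that is also a tumour suppressor, measured 85.4, 87.2 and 85.5 CPM against 66.5, 41.3 and 53.5 CPM. It was higher in every AAV9-hFNDC4 library, with a log2 fold change of 0.68 (SE 0.15), but with 13153 exon bases it was the longest member, and with the length correction the value was 0.16 and the call ended.

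Axin1, the scaffold held to limit the assembly of the complex, measured 51.6, 57.9 and 52.9 CPM against 52.8, 49.1 and 56.4 CPM. The groups overlapped, and the log2 fold change was 0.04 (SE 0.11, edgeR, adjusted p = 0.804). Axin2, its inducible paralog and the usual readout of canonical signalling, had 1 count, in AAV9-CTRL replicate 1, among 6 libraries.

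β-catenin itself was the most abundant member. Ctnnb1 measured 688, 624 and 719 CPM in the AAV9-hFNDC4 libraries and 585, 616 and 599 CPM in the control libraries. The groups did not overlap, yet the log2 fold change of 0.17 (SE 0.10) did not pass (edgeR, adjusted p = 0.178), and it passed at 0.25 without both libraries numbered 2. RNA level says nothing of β-catenin protein, whose amount is set by degradation. Ctnnb1 lies on chromosome 9 from 120929216 to 120960507 and Gsk3b on chromosome 16 from 38089001 to 38246084 (GRCm38).

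Of the nuclear factors, Tcf7l1, known mainly as a repressor of Wnt targets, measured 68.2, 45.3 and 64.0 CPM against 37.7, 44.3 and 43.7 CPM. AAV9-hFNDC4 replicate 2 lay just above the highest control library. The log2 fold change was 0.50 (SE 0.15, edgeR, adjusted p = 0.0179), and the call ended without AAV9-hFNDC4 replicate 1 (0.39), AAV9-hFNDC4 replicate 3 (0.44) or AAV9-CTRL replicate 1 (0.46). Tcf7l2, the factor of the family that is widely expressed in adult tissues, measured 15.6, 7.87 and 14.5 CPM against 7.23, 7.08 and 5.92 CPM. Again AAV9-hFNDC4 replicate 2 stood close to the controls, with the other libraries of its group well above them, and the log2 fold change was 0.91 (SE 0.24, edgeR, adjusted p = 0.0089). Lef1 had 9 counts over the 6 libraries, 8 of them in AAV9-CTRL replicate 2. Per kilobase, Tcf7l1 held 84.0% to 89.3% of the summed level of Tcf7, Lef1, Tcf7l1 and Tcf7l2 in any library.

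**Figure D3:**
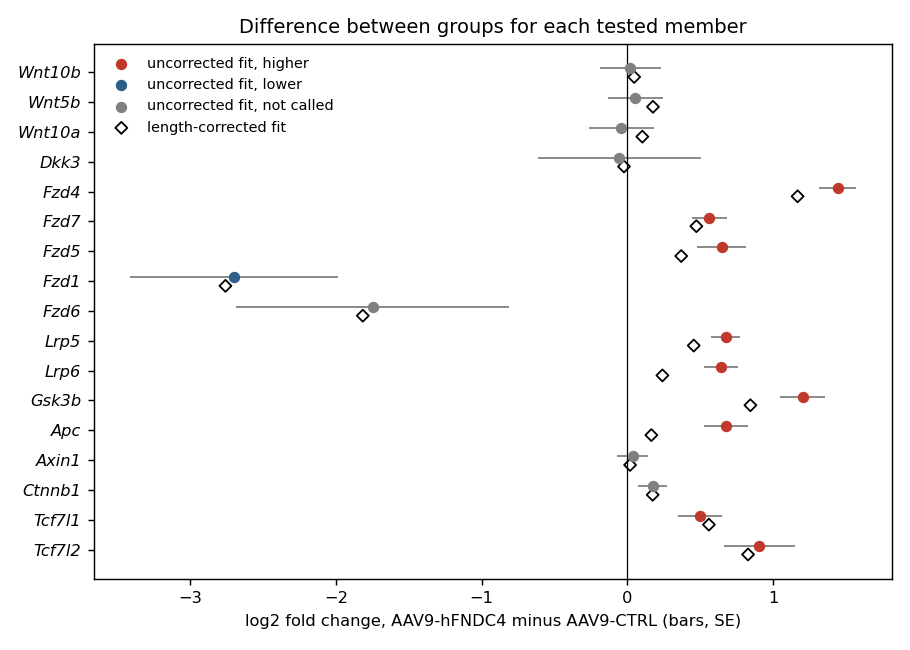
Log2 fold change of each tested gene, AAV9-hFNDC4 minus AAV9-CTRL, as filled points with SE bars (red higher, blue lower, grey not called), beside the length-corrected value as open diamonds. Fzd4 and Gsk3b are highest at 1.44 and 1.20, Fzd1 is lowest at -2.70 with a wide SE, and the correction moves Apc, Lrp6 and Fzd5 to 0.16, 0.24 and 0.37.

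Further pathway genes, 69 in a list that leaves out the members, went both ways. Of these 50 entered the test, 17 were higher, 11 were lower and 22 did not pass, so that 56.0% were called, with a median log2 fold change of 0.16. With the length correction the split was 13 higher and 14 lower. The list was chosen with earlier results of these data known, and its counts are read only against the 47.1% called over all genes.

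Of the tested genes 2 of 2 for ligand release and 2 of 3 of the R-spondin axis were called, all higher. Over all genes tested 47.1% were called, and lists this short allow no reading of a share. Porcn, the acyltransferase that attaches the lipid to Wnt proteins, measured 11.3 ± 1.75 against 7.07 ± 1.06 CPM (SD, n = 3), which gave a log2 fold change of 0.67 (SE 0.19). Wls, the carrier that brings Wnt proteins to the cell surface, measured 309.6 ± 20.0 against 250.3 ± 9.35 CPM, which gave a log2 fold change of 0.31 (SE 0.10) that ended without AAV9-hFNDC4 replicate 1 or 2 or AAV9-CTRL replicate 3. Notum, a secreted enzyme that removes the lipid, had no counts.

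Rnf43, a ubiquitin ligase that removes Frizzled receptors from the surface, measured 25.5 ± 4.57 against 15.1 ± 1.48 CPM, which gave a log2 fold change of 0.75 (SE 0.15). Lgr6, an R-spondin receptor, measured 62.9 ± 5.16 against 38.5 ± 10.6 CPM, which gave a log2 fold change of 0.71 (SE 0.17) that stood at 0.45 with the length correction. Lgr4, its relative, had a log2 fold change of 0.07 (SE 0.14) and did not pass. The other 6 genes of this axis, the 4 R-spondins, Lgr5 and Znrf3, did not enter the test, so the called genes of the axis were 1 receptor and 1 ligase. Kremen1, a receptor for DKK proteins, had a log2 fold change of 0.64 (SE 0.11). It was the 1 called gene of 4 tested among 8 further antagonists, or 25.0% against 47.1% of all genes tested.

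Planar polarity genes were called in both directions. Prickle2 measured 28.2 ± 3.03 against 12.6 ± 3.58 CPM, which gave a log2 fold change of 1.16 (SE 0.18), and Daam1, a formin downstream of Dishevelled, 56.0, 73.8 and 63.9 against 44.8, 30.9 and 30.8 CPM, which gave a log2 fold change of 0.86 (SE 0.16). Prickle1 was higher by 0.66 (SE 0.20), a call that ended without AAV9-hFNDC4 replicate 3 or AAV9-CTRL replicate 3. Vangl1 was higher by 0.33 (SE 0.11), which fell to 0.06 and lost its call with the length correction, and also lost it without AAV9-hFNDC4 replicate 1 or 3 or AAV9-CTRL replicate 3. Of the atypical cadherins 2 were lower, with Celsr2 at 0.217 ± 0.0254 against 2.99 ± 1.29 CPM, which gave a log2 fold change of -3.76 (SE 0.46), and Celsr1 at -0.57 (SE 0.21), while Celsr3 did not pass at 0.25 (SE 0.42). Celsr2 had 8, 7 and 9 counts in the AAV9-hFNDC4 libraries and 104, 53 and 143 in the control libraries, so it entered the test through the group where it was high. Celsr1 lost its call without AAV9-hFNDC4 replicate 1 or 3 or AAV9-CTRL replicate 1 or 3 and with upper-quartile normalization, and stood at -1.04 with the length correction. The alternative receptor Ryk did not pass (-0.40, SE 0.16) but did with DESeq2, with no filter on counts and after leaving out AAV9-CTRL replicate 1. The receptor kinases Ror1 and Ror2 had 1 and 0 counts over the 6 libraries.

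In the cytoplasmic relay 4 of 14 tested genes were higher and 4 lower, or 57.1% called against 47.1% of all genes tested. The lower genes were the kinases Csnk1d (-0.77, SE 0.09), Gsk3a (-0.46, SE 0.10) and Csnk1e (-0.42, SE 0.14) and the adaptor Dvl1 (-0.37, SE 0.10). Dvl2 and Dvl3, the other Dishevelled adaptors, did not pass at -0.08 (SE 0.10) and 0.24 (SE 0.13), nor did the priming kinase Csnk1a1 at 0.23 (SE 0.10), which passed with upper-quartile normalization. The higher genes were Apc2 (0.89, SE 0.24), the membrane adaptor Amer1 (0.87, SE 0.16), and the AXIN-degrading tankyrases Tnks (0.51, SE 0.17) and Tnks2 (0.28, SE 0.10). With the length correction Amer1 stood at 0.51 and was still called, whereas Apc2 stood at 0.51, Tnks at 0.12 and Tnks2 at 0.02, and the calls of these 3 ended. With that correction and the replicate block together Amer1, at 0.49, was no longer called. Tnks also lost its call without AAV9-hFNDC4 replicate 2 or 3 or AAV9-CTRL replicate 2 or 3, and Tnks2 without any 1 of 5 libraries, AAV9-CTRL replicate 1 being the exception. Csnk1e was not called without AAV9-hFNDC4 replicate 1 or 2 or AAV9-CTRL replicate 1 or 3, nor Dvl1 without AAV9-hFNDC4 replicate 1 or AAV9-CTRL replicate 3.

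The GSK3 kinases are encoded by a pair of paralogs that moved in opposite directions. Gsk3a measured 76.3, 71.2 and 80.4 CPM in the AAV9-hFNDC4 libraries and 102, 104 and 108 CPM in the control libraries, with no overlap. Per kilobase, the ratio of Gsk3b to Gsk3a was 0.581, 0.882 and 0.599 against 0.262, 0.181 and 0.201. The sum of both was 56.5 ± 2.95 against 56.3 ± 1.66 CPM per kb (SD, n = 3), so the share of Gsk3b differed (36.8% to 46.9% against 15.4% to 20.8%) while the sum differed by less than its spread. The Gsk3b transcript model is longer, at 8342 exon bases against 2260, and with the length correction the log2 fold changes were 0.84 and -0.30, both still called. With that correction and the replicate block together Gsk3b was still called, but Gsk3a was not.

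Nuclear partners of β-catenin were called in both directions. Bcl9l, a coactivator that binds β-catenin, measured 211 ± 9.43 against 106 ± 7.88 CPM, which gave a log2 fold change of 0.99 (SE 0.10), and its paralog Bcl9 stood at 0.90 (SE 0.16). The corepressor Tle3 was higher by 0.46 (SE 0.10), at 0.27 with the length correction, and was not called with that correction and the replicate block together. Lower were Pygo2, a partner of BCL9 proteins (-0.39, SE 0.10), Ctnnbip1, an inhibitor of β-catenin (-0.62, SE 0.18), and the corepressor Ctbp1 (-0.34, SE 0.12). Ctnnbip1 was not called without AAV9-hFNDC4 replicate 2 or AAV9-CTRL replicate 2, and Ctbp1 was called without AAV9-CTRL replicate 1 and lost without each of the other 5 libraries.

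Target genes used as readouts of the canonical branch were called in both directions, and several had few or no counts. Of 17, 7 did not enter the test: Axin2, Lef1, Notum, Sp5, Lgr5, Znrf3 and Tnfrsf19, with Notum and Sp5 at 0 counts. Of the 10 that did, 2 were higher, 2 lower and 6 did not pass, or 40.0% called against 47.1% of all genes tested. Higher were Rnf43, described above, and Myc, by 0.44 (SE 0.14), a call that ended without AAV9-hFNDC4 replicate 2 or AAV9-CTRL replicate 2. Lower were Ccnd1 (cyclin D1), at 344 ± 51.3 against 576 ± 90.9 CPM, which gave a log2 fold change of -0.74 (SE 0.14), and Bambi, at 1.03 ± 0.408 against 2.65 ± 0.722 CPM. Nkd1, an inducible feedback inhibitor, measured 33.9, 28.5 and 28.8 CPM against 24.5, 31.2 and 29.4 CPM, with overlapping groups and a log2 fold change of 0.10 (SE 0.13). Cd44 did not pass (-0.40, SE 0.20), but did with the length correction, with no filter on counts and, at -0.64, after leaving out AAV9-CTRL replicate 2. Myc, Ccnd1 and Cd44 are known to respond to many signals besides Wnt.

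**Figure D4:**
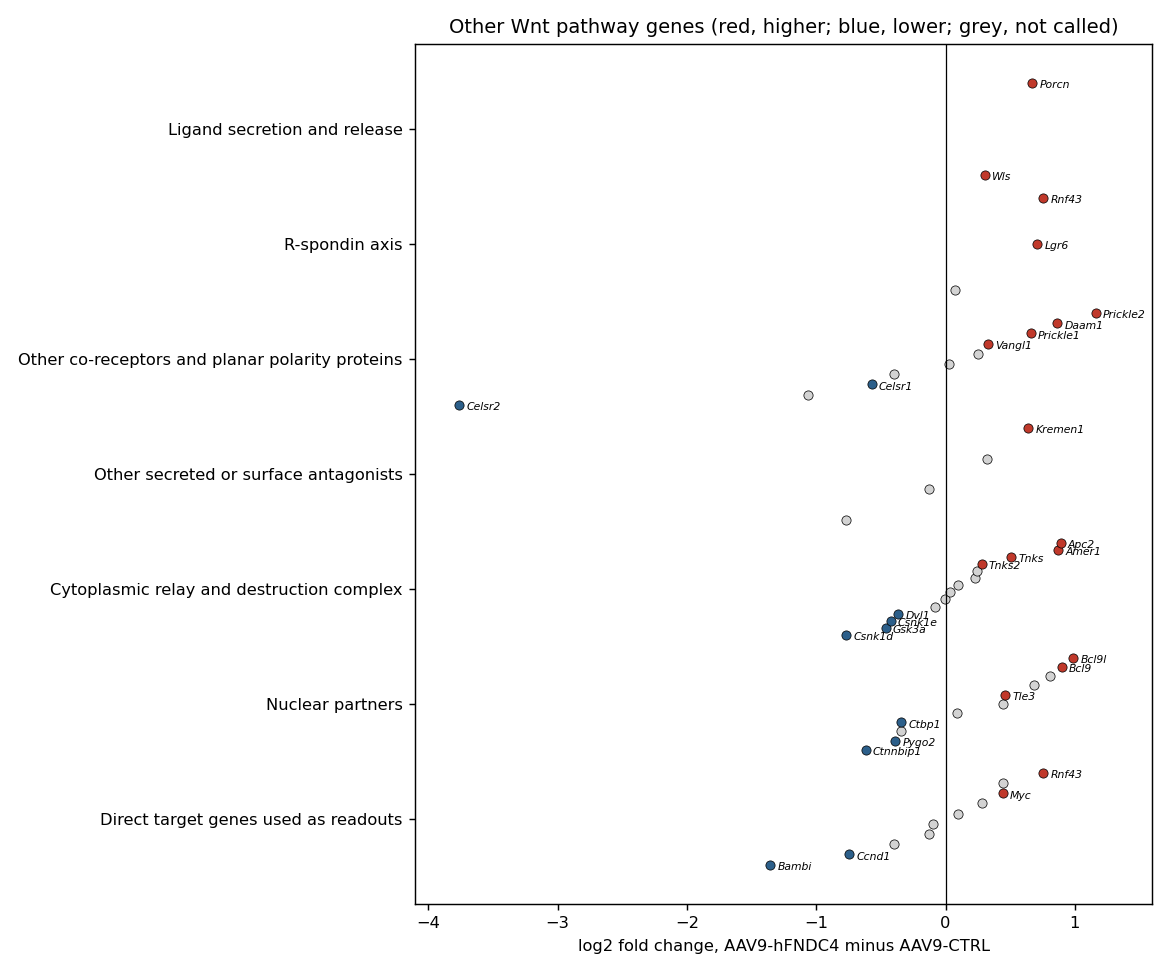
Log2 fold change, AAV9-hFNDC4 minus AAV9-CTRL, of each tested gene in the 7 lists of further pathway genes, with points spread within a list for legibility and called genes named. Most lists hold both red (higher) and blue (lower) points, Celsr2 is lowest at -3.76, and the called genes for ligand release and the R-spondin axis lie to the right of 0.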

How the data were processed

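The authors deposited raw read counts per gene symbol for 6 libraries, with no normalization. Per the submitters' processing notes, fastp, HISAT2, HTSeq, R 3.2.0, DESeq2 and the mouse build GRCm38 (mm10) were used. Parameters, annotation release, strand setting and RNA selection were not given in the sources used here.

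Testing used edgeR 4.0.16 under R 4.3.3 (filterByExpr defaults with a minimum count of 10, TMM, robust quasi-likelihood test of the 2 groups over 14663 genes, Benjamini-Hochberg adjustment). SE is the size of the log2 fold change divided by the square root of F. CPM used TMM-scaled library sizes. Exon lengths and positions are from GENCODE vM21 basic (GRCm38), in which 38 of 38 members and 92.5% of tested genes were found. The members, lists and tests were chosen with earlier results of these data known. Every tested member is given. Of further genes, up to 4 per list and direction with the smallest p are named, with others for their role. The symbols Wisp1 and Wisp2 of the lists are Ccn4 and Ccn5 in the table. Floors are 3 counts and cover counting error only.

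Alternatives were RLE and upper-quartile scaling, DESeq2 1.42.0, limma-voom 3.58.1, no filter, a minimum of 1 CPM in 3 libraries, the replicate number as a block, a per-library loess correction for transcript length (span 0.4), both together, leaving out each library, and calling only changes over 1 on the log2 scale. Leaving out both libraries numbered 2 was added later. On counts simulated for this comparison (14663 genes, 200 changed), the test called 87% of genes changed 2-fold, 40% of those changed 1.5-fold and 0.111% of unchanged genes. In the data themselves 47.1% of tested genes were called, many more than were changed in the simulation. The adjusted threshold therefore differs, and these rates do not carry over to the data.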

Additional observations from a re-analysis of the deposited data

How the results depend on the processing

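The 9 higher members were 7 with the length correction, 6 with the replicate block and length correction together, 2 where an absolute log2 fold change above 1 was also required, 11 without both libraries numbered 2, and 8 to 9 when single libraries were left out. Over all genes, 3240 of 14663 were higher in the main test and 2936 of 13558 with the length correction. With block and length correction 2159 of 13558 were higher, and without both libraries numbered 2 it was 3755 of 14913. The 1 lower member became 0 where at least 1 CPM in 3 libraries was required, since Fzd1 was then not tested, and 1 to 2 when single libraries were left out. Of the further genes, the 17 higher were 9 with the replicate block and length correction and 1 under the fold rule, and 12 to 17 without single libraries. The 11 lower were 2 under the fold rule and 7 to 12 without single libraries. The replicate block alone gave 9 higher and 1 lower member, and 12 higher and 9 lower further genes. Same-numbered libraries of the 2 groups did not vary together (correlation of deviations from the group means -0.087, -0.202 and -0.059). No library correlated best with its own number. With so few libraries per group these deviations depend on each other, so the values cannot settle whether the numbers pair the libraries.

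Changes of sign occurred only in genes that were not called. Axin1 was -0.061 without both libraries numbered 2 and -0.012 to 0.085 without single libraries, and Dkk3 was 0.59 and -0.81 to 0.32. Wnt10a was 0.009 with upper-quartile scaling, 0.10 with the length correction, 0.094 with block and length correction, and -0.20 to 0.063 without single libraries. Wnt10b ranged from -0.12 to 0.27 and Wnt5b from -0.046 to 0.21 without single libraries. With the length correction Lgr4 was -0.063 (-0.061 with the block) and Csnk1a1 -0.026 (-0.024 with the block). For single named genes, 721 of 829 alternative values kept direction and side of the threshold, 75 lost the call, 11 gained it and 22 changed sign. The 21 members that did not enter the test had at most 26 counts each over the 6 libraries, so no difference between the groups was tested for them.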

Other observations

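Norrin is the ligand that FZD4 shares with no other Frizzled, and its gene Ndp was looked up after the rise of Fzd4 had been seen. Ndp measured 6.97, 5.04 and 5.02 CPM in the AAV9-hFNDC4 libraries and 4.83, 5.23 and 4.25 CPM in the control libraries, with overlapping groups and a log2 fold change of 0.25 (SE 0.22, edgeR, Benjamini-Hochberg adjusted p = 0.366), or 0.47 with the length correction. Tspan12, a membrane protein that assists FZD4 in the response to Norrin, was at 0 counts in all AAV9-hFNDC4 libraries and had 1, 2 and 7 counts in AAV9-CTRL replicates 1 to 3, and did not enter the test.

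The near-silent members were unevenly detected. Of the 21 members that did not enter the test, 14 had at least 1 count in AAV9-CTRL replicate 2, against 8 and 7 in AAV9-CTRL replicates 1 and 3 and 4 to 5 in the AAV9-hFNDC4 libraries. Among all 27482 genes, 20540, 20870 and 20431 had a count in AAV9-CTRL replicates 1 to 3. In the AAV9-hFNDC4 libraries 18717 to 18863 did, so the groups also differed in detection over the whole table. There were 12 members with counts in 1 library only, and 7 of these were in AAV9-CTRL replicate 2: Dkk2, Dkk4, Fzd2, Fzd3, Fzd8, Sfrp4 and Wnt9a, with 1 to 5 counts each. Over the whole table, 938 genes had counts only in that library, against 741 and 713 in the other control libraries and 284 to 299 in the AAV9-hFNDC4 libraries, although its total of 32975817 counts was the smallest.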
